A study of Mus musculus with 7 samples.

Results

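The 300 bins described here are the stretches of the mouse autosomes with the most BRG1 reads over input in stimulated T helper cells, out of 247241 autosomal bins of 10 kb (0.121%). They were chosen by the mean RPM (reads per 1000000 distinct reads) of stimulated Th1, Th2 and Th17 cells minus the RPM of the input, keeping 1 read per chromosome, 5′ end and strand (a distinct read). Those values are therefore a description, and nothing is supported with them. The values behind the choice ran from 43.1 to 124.5 RPM of excess, with a median of 50.0.

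BRG1 provides the ATPase activity of SWI/SNF (BAF) chromatin remodelling complexes, which use ATP to slide or evict nucleosomes and so opens DNA to transcription factors. BRG1 is found at promoters and at distal enhancers, and in activated lymphocytes its recruitment accompanies the opening of inducible genes. Long stretches that hold several such elements side by side are often described as enhancer-rich domains. The deposited files hold no histone marks, and no gene annotation of their genome build was used, so whether an element inside a bin is an enhancer or a promoter is not shown here. Regions are given by mm9 coordinates.

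BRG1 was immunoprecipitated with the J1 antibody from formaldehyde-fixed nuclei treated with MNase and sonicated. The series holds 7 libraries of Balb/C cells, 1 per group. Naive CD4+CD62L+ cells, purified to 95%, came from the spleens and lymph nodes of mice 4 to 6 weeks old, and the effector cells were grown from such cells in a single round of culture. Th1 cultures had anti-CD3 at 1 μg/ml, anti-CD28 at 2 μg/ml, IL-12 at 1 ng/ml and anti-IL-4 at 10 μg/ml. Th2 cultures had the same anti-CD3 and anti-CD28, IL-4 at 10 ng/ml and anti-IFNγ at 10 μg/ml. Both were then kept in IL-2 at 100 U/ml. Th17 cultures had soluble anti-CD3 at 4 μg/ml and anti-CD28 at 1 μg/ml, anti-IL-4 and anti-IFNγ at 10 μg/ml each, 1 ng/ml of TGF-β, 10 ng/ml of IL-1β and 100 ng/ml of IL-6, and later 10 ng/ml of IL-23. Stimulated Th1, Th2 and Th17 cells were treated for 1.5 h with 500 ng/ml ionomycin plus 50 ng/ml PMA, which together mimic signalling through the T cell receptor. Resting Th1 and Th2 cells were not treated in this way, and a resting Th17 library was not analysed here. The input was DNA of pooled CD4+ T helper cells without immunoprecipitation.

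Distinct reads numbered from 1340208 in resting Th2 to 7892944 in stimulated Th17. With 1 library per group no difference has a replicate check. There are thus no p-values, and a ratio sets 1 library against another, not 1 condition against another. Ratios carry 95% conditional exact intervals, which take in the error of counting alone, since reads amplified by PCR and lacking molecular identifiers cannot be taken as separate molecules. A bin was called higher or lower where its RPM ratio was at least 2-fold and the interval left out 1. The background beside each count is the percentage called among all autosomal bins with at least 10 reads in the same pair of libraries.

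In the stimulated cells the bins held up to 19.5 times the reads that their share of the genome would give. They took up 2.37% of the distinct reads of stimulated Th1 (95% exact binomial interval 2.35 to 2.38), 1.99% of stimulated Th2 (1.98 to 2.00) and 1.68% of stimulated Th17 (1.67 to 1.69). In cells without stimulation they held 1.37% of resting Th2, 1.25% of resting Th1 and 0.887% of naive. The input had 0.402% there. In the median bin stimulated Th1 had 75.3 RPM, stimulated Th2 63.1 and stimulated Th17 55.4. Without stimulation resting Th2 had 42.2 RPM, resting Th1 39.3 and naive 27.5, and the input had 12.3. Levels thus lay lowest in naive, in between in the resting subsets and highest after stimulation, with wide overlap. The median of all autosomal bins ran in reverse, at 3.38 RPM in naive, 2.765 and 2.24 in resting Th1 and Th2, and 1.77 to 1.88 in the stimulated libraries. The order in the 300 bins thus goes with a difference across whole libraries, and its cause was not tested. Naive also had the most reads per distinct read, 1.705. Single bins ranged from 1.45 to 237 RPM in naive and from 44.9 to 269 RPM in stimulated Th1.

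**Figure D1:**
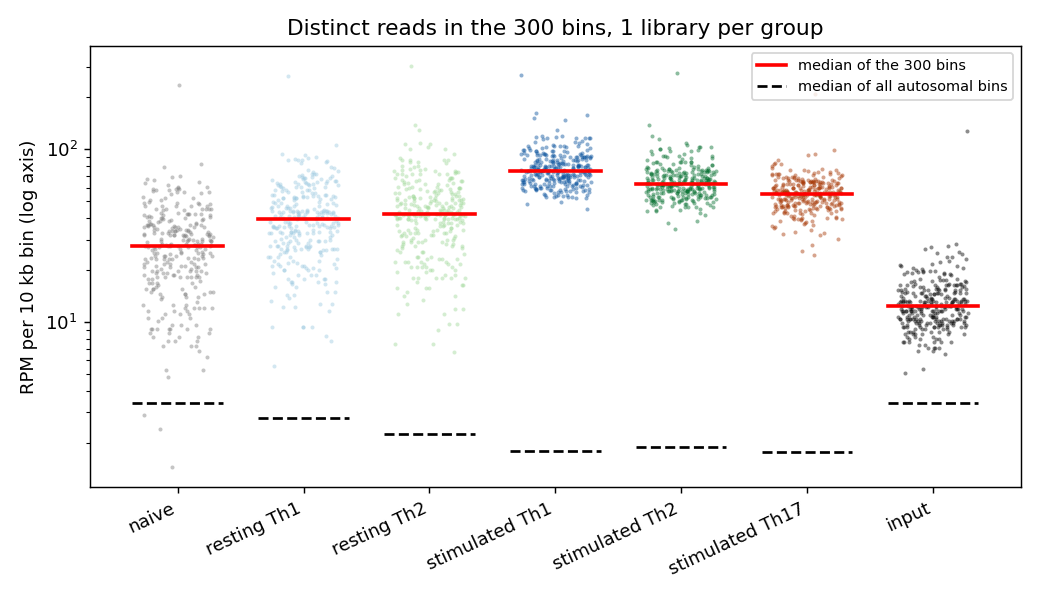
RPM of each of the 300 bins (points, log axis) in the 7 libraries, with the median of the 300 bins as a red line and the median of all autosomal bins as a dashed line. The red lines stand at 27.5 RPM in naive, 75.3 in stimulated Th1 and 12.3 in input, all above the dashed lines, which lie between 1.77 and 3.40.

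The input was itself raised in these bins. All 300 lay above the median autosomal bin of the input (3.40 RPM), and the median was 3.63 times that value, although the rule subtracts the input. Its part in the BRG1 level was not tested beyond this subtraction. Mean stimulated RPM was 5.28 times the input in the median bin, and from 1.98 to 11.4 times over all of them. Only 4 bins stood under 3 times the input. A single bin, on chromosome 11 from 3090001 to 3100000, had input above 30 RPM. It led the ranking with 1053, 1180 and 1657 reads in stimulated Th1, Th2 and Th17, against 490 in naive, 483 and 408 in resting Th1 and Th2, and 450 in the input. Its fullest 200 bp window began at 3093401 in all 7 libraries, input included.

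The next bins by rank had far lower input. On chromosome 11, 98800001 to 98810000, stimulated Th1 had 579 reads, stimulated Th2 490, stimulated Th17 786, naive 118, resting Th1 105, resting Th2 97 and input 46. In RPM that is 148, 115, 99.6, 57.0, 58.1, 72.4 and 13.0 in the same order, so the 3 stimulated libraries all lay above the others. On chromosome 15, 76020001 to 76030000, stimulated Th1, Th2 and Th17 had 159, 103 and 93.8 RPM, resting Th1 and Th2 had 68.0 and 65.7, naive had 31.4 and input 17.3. On chromosome 15, 72980001 to 72990000, the unstimulated libraries were lower, at 35.2 RPM for naive, 27.1 for resting Th1 and 31.3 for resting Th2, against 120, 84.5 and 86.5 for stimulated Th1, Th2 and Th17. At the edge of the list the excess changed little. The last 3 bins inside had 43.1 to 43.14 RPM and the first 3 outside 42.9 to 43.02.

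The bins were not spread evenly over the chromosomes. Chromosome 11 held 39 of them, 0.320% of its bins, and chromosome 13 held 2, or 0.0166%. Chromosomes 17, 4 and 19 followed chromosome 11 at 0.189%, 0.186% and 0.179%. Gene density and base composition differ between chromosomes, and their part was not tested.

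Most of the bins stood alone on the 10 kb grid, in that no adjacent bin was on the list. This depends on where the list ends, so the length of a domain cannot be read from it. A neighbour among the top 3000 bins was found for 174 of the bins. In the median bin the neighbours had 37.3% of its mean stimulated level, and in 76 bins at least 50%. These counts have no share over all autosomal bins beside them. Joining adjacent bins gave 277 stretches, of which 257 were single bins, 18 were pairs and 2 were longer. The longest was on chromosome 11 from 117160001 to 117200000, with 4 bins and a mean per bin of 89.2, 63.9 and 66.1 RPM in stimulated Th1, Th2 and Th17, 46.3 and 47.2 in resting Th1 and Th2, 24.3 in naive and 10.4 in input. A bin from 117100001 to 117110000 was also on the list, and with gaps of up to 50 kb joined the cluster had 6 bins over 100000 bp. The second stretch was on chromosome 10 from 79600001 to 79630000, with 3 bins and means of 106, 88.9 and 66.6 RPM in stimulated Th1, Th2 and Th17, 62.9 and 64.4 in resting Th1 and Th2, 45.2 in naive and 20.7 in input. The pairs with the largest summed excess were on chromosome 15 from 76020001 to 76040000, on chromosome 11 from 98790001 to 98810000 and on chromosome 15 from 97650001 to 97670000. In all 5 the 3 stimulated libraries lay above the 3 unstimulated ones, an order that the rule favours by choosing bins high after stimulation. Joined over gaps of up to 50 kb, a distance set after seeing the data, 88 of the bins fell into 39 clusters.

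Outside the chosen bins BRG1 fell steeply and then levelled off above the genome mean. The bins on either side had a mean of 29.4 and 28.2 RPM in stimulated Th1, against 78.9 in the chosen bins. At 200 kb the means were 10.8 and 9.76 RPM in stimulated Th1 and 6.40 and 5.97 in naive, while the means over all autosomal bins were 3.94 and 3.87. The input at 200 kb, 6.27 and 6.07, was also above its own mean of 3.88. Stimulated Th17 lay below stimulated Th2 in the chosen bins (56.0 against 66.4) and above it in the bins next to them (27.5 and 26.1 against 25.2 and 24.2). The flanks were not used by the rule, except where a neighbour was itself on the list.

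**Figure D2:**
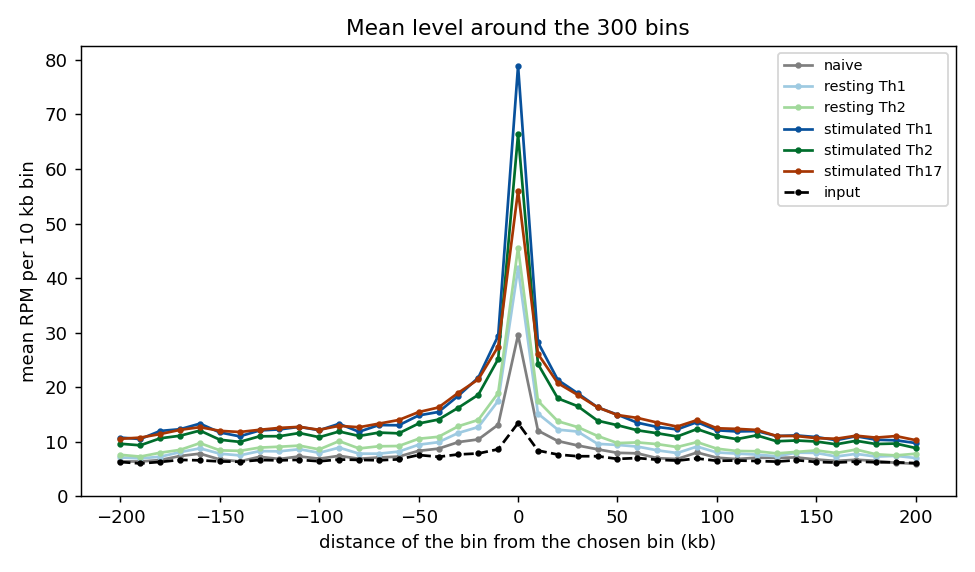
Mean RPM per 10 kb bin (vertical axis) against distance from the chosen bin in kb (horizontal axis), 1 line per library, with the input dashed. Stimulated Th1 peaks at 78.9 RPM in the chosen bins and is at 29.4 and 28.2 in the bins next to them.

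Most of the bins held several separate called regions when the calls of the 3 stimulated libraries were joined. Windows of 200 bp were called against the genome mean and the local input at equal depth, 1340208 distinct reads per library, and joined over gaps of 1 window into regions. In the union of the 3 stimulated libraries the median bin had 3 regions made of 5 windows, and at most 6. At least 3 regions stood in 202 of the 300 bins, against 0.303% of all autosomal bins, a comparison in which the same reads chose the bins. The other 98 had fewer, and 28 of them had a single region. From the first to the last called window the median span was 4800 bp, and 147 bins spanned at least 5000 bp. The latter count has no share over all autosomal bins beside it. By library, stimulated Th1 had at least 3 regions in 137 of the bins (background 0.115%), stimulated Th2 in 85 (0.0724%) and stimulated Th17 in 43 (0.0429%). Resting Th1 had them in 32 (0.0303%), resting Th2 in 31 (0.0465%) and naive in 5 (0.00364%). Stimulated Th17 thus had the fewest of the stimulated libraries at equal depth, but with all distinct reads it had the most, 260, against 247 for stimulated Th1 and 243 for Th2.

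**Figure D3:**
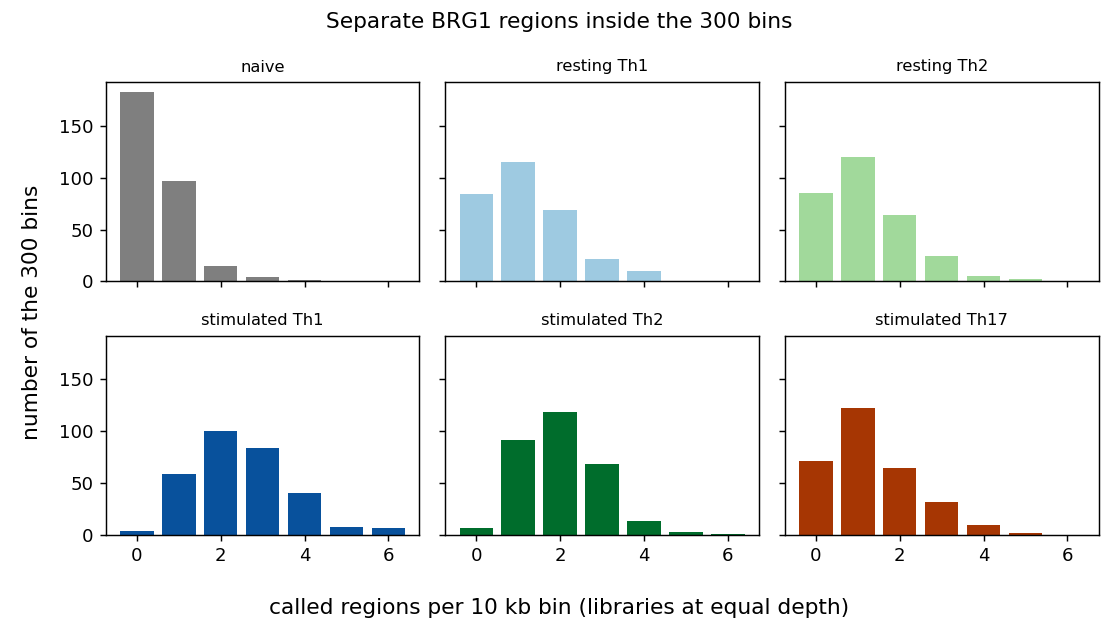
Number of the 300 bins (vertical axis) by the number of called BRG1 regions inside the bin (horizontal axis), 1 panel per library at equal depth. In naive 183 bins have no region, while in stimulated Th1 4 bins have none and 137 have at least 3.

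Most of the called windows were not called in all 3 stimulated libraries, in the bins as on all autosomes. The stimulated libraries had 1628 called windows inside the bins, of which 229 (14.1%) were called in all 3, against 6.81% of the 24112 such windows on all autosomes. Of the 1628, 453 (27.8%) were also called in 1 or more of the unstimulated libraries, close to the 26.0% on all autosomes. A further 246 windows, in 147 bins, were called in an unstimulated library and in no stimulated one. In all 6 libraries 50 windows, in 37 bins, were called. Neither this count nor the 246 has a share over all autosomes beside it. Calling depends on the number of reads in a window, so a window missing from a library was not detectable at this depth. At equal depth the fullest window was the same or the adjacent one in stimulated Th1 and Th2 in 65.0% of the bins (all autosomal bins with at least 10 reads in both, 59.1%) and in resting Th1 and Th2 in 60.1% (56.8%). Between resting and stimulated Th1 the share was 44.5% (52.0%), between resting and stimulated Th2 45.8% (50.5%), and between naive and stimulated Th17 29.2% (38.1%). The pairs across states thus lay below their background and the pairs within a state above it, except naive and resting Th1, at 51.0% (52.3%), and naive and resting Th2, at 49.7% (49.9%). The fullest window of the input, at its full depth, also matched that of the BRG1 libraries. The share ran from 32.0% (23.8%) for stimulated Th17 to 40.3% (33.3%) for stimulated Th2, and lay above its background in all 6. No test of these differences was possible with 1 library per group.

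**Figure D4:**
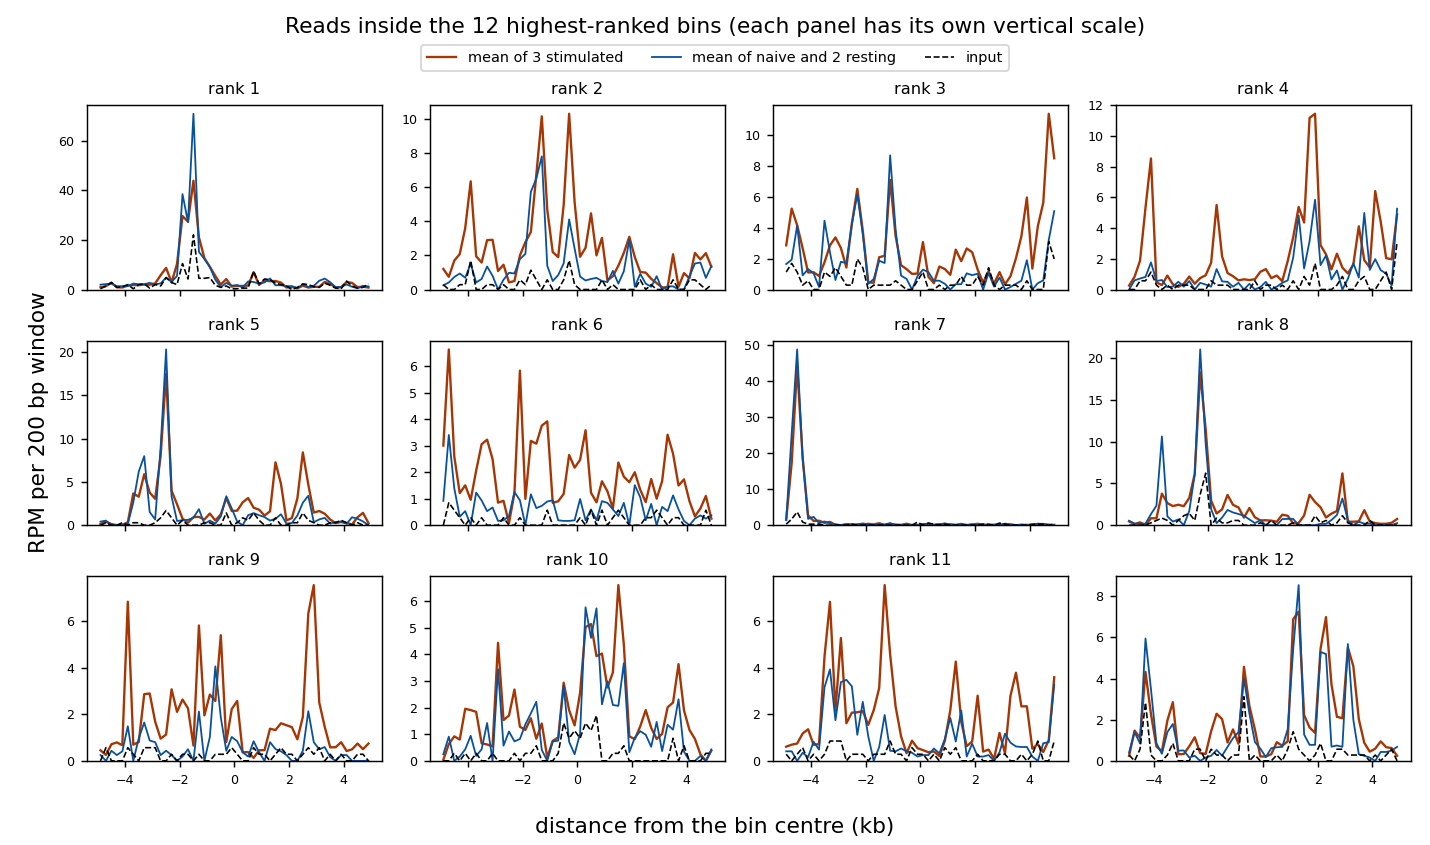
RPM per 200 bp window (vertical axis, own scale in each panel) against distance from the bin centre in kb (horizontal axis) for the 12 highest-ranked bins, as the mean of the 3 stimulated libraries, the mean of naive and both resting libraries, and the input (dashed). Ranks 1 and 7 have most of their reads in a narrow stretch in both states, while ranks 4, 6 and 9 have several peaks that are higher after stimulation.

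Some of the bins were narrow and not broad. The fullest window held a median of 11.9% of the mean stimulated RPM of a bin, from 4.78% to 62.5%, where an even spread over a bin would give 2%. It held at least 25% in 18 bins, or 6.0%, against 15.0% of the 39361 autosomal bins with at least 100 stimulated reads, many of which have few reads. The bin on chromosome 19 from 7010001 to 7020000, named after its value was seen, had the largest share, 62.5%. On chromosome 1, 46910001 to 46920000, rank 7, the window from 46910401 held 205 of 455, 238 of 466 and 192 of 489 reads in stimulated Th1, Th2 and Th17. It held 80 of 171 in naive, 87 of 192 and 80 of 174 in resting Th1 and Th2, and 13 of 43 in input. All 7 libraries thus had their maximum in 1 window.

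In these 18 bins the ratio of stimulated to resting cells depended on how repeated reads were treated. With 1 read per position and strand, the pooled ratio of stimulated to resting Th1 and Th2 was 1.05 in the median narrow bin (0.829 to 5.71) and 1.69 in the median of the other 282 (0.798 to 9.58). With all reads kept, which was tried after seeing the data, the medians were 1.60 and 1.86, and the lowest narrow bin had 1.11. Over all 300 bins the share of the fullest window had little relation to the ratio with distinct reads. Spearman rho was 0.076, and Pearson r with the log2 ratio was -0.087. Of the 39 bins with a pooled ratio of 3 or more, 3 were narrow. For rank 7 the ratio was 0.969 (0.857 to 1.10) with distinct reads and 1.59 with all reads. The bin on chromosome 2 from 49300001 to 49310000 went from 0.829 (0.729 to 0.944) to 1.59, so its direction turned. One read per position and strand allows at most 400 distinct reads in a window of 200 bp, and the fullest windows held up to 238. Whether this limit shaped the ratios was not tested. Reads per distinct read were 1.13 overall and 1.39 inside the 300 bins for stimulated Th1, 1.13 and 1.47 for stimulated Th2, 1.40 and 1.63 for resting Th1, and 1.58 and 1.84 for resting Th2.

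The libraries of unstimulated cells, which the rule did not use, were above the input in most of the bins. Naive was called higher than input in 168 of 300 (background 3.53%) and lower in 4 (4.36%), with a median ratio of 2.16. Resting Th1 was called higher in 237 (4.86%) and lower in none (4.95%), with a median of 3.12. Resting Th2 was called higher in 245 (6.22%) and lower in none (5.43%), with a median of 3.42. The ratios of all tested bins had medians below 1, by 0.10, 0.26 and 0.41 on the log2 scale. Relative to those medians 182, 264 and 275 bins were called higher (background 4.71%, 7.38% and 10.3%). All 3 unstimulated libraries were called higher in 161 of the bins (background 1.53%) and none in 35 (91.3%). The input stands on both sides of this comparison and of the rule.

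By the lower bound of the naive to input ratio the highest of the bins was chromosome 1, 46910001 to 46920000, with 82.5 RPM in naive and 12.2 in input, a ratio of 6.78 (4.83 to 9.71). On chromosome 1, 167770001 to 167780000, naive had 120 reads, resting Th1 and Th2 had 83 and 47, stimulated Th1, Th2 and Th17 had 280, 255 and 522, and input had 36. In RPM naive was at 57.9, resting Th1 at 45.9 and resting Th2 at 35.1. That is a naive to input ratio of 5.68 (3.89 to 8.49), and the order of the unstimulated libraries there was the reverse of that of the medians. The bins on chromosome 9 from 32510001 and on chromosome 4 from 133670001 had ratios of 5.87 (3.79 to 9.38) and 5.66 (3.58 to 9.24). At the other end were bins with almost no naive reads. On chromosome 2, 101630001 to 101640000, naive had 3 reads and input 33, with 25 and 27 in resting Th1 and Th2 and 362, 266 and 304 in stimulated Th1, Th2 and Th17. This bin and 3 more, named after their values were seen, made up the 4 in which naive was called below input: chromosome 2 from 38390001, chromosome 7 from 16790001 and chromosome 5 from 32490001.

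Comparisons among naive, resting Th1 and resting Th2 address differentiation and use no library of the rule. The rule did choose bins high in stimulated Th1 and Th2, which were cultured under the same conditions as the resting cells. Resting Th1 was called higher than naive in 49 of the bins (background 2.93%) and lower in 1 (2.7%), with a median ratio of 1.47. Resting Th2 was called higher in 70 (5.88%) and lower in 2 (3.26%), with a median of 1.57. Both comparisons share the naive library. At equal depth naive had 3307 called windows on all autosomes, against 7788 in resting Th1 and 9596 in resting Th2. Differentiation cannot be told apart here from a difference across whole libraries. The bins lower than naive, also named after their values were seen, were on chromosome 9 from 20960001, in both resting subsets, with 66 naive reads against 24 and 20, and on chromosome 15 from 101080001, in resting Th2, with 82 and 24 reads. The chromosome 2 bin from 101630001 had the highest ratios to naive, 9.55 (2.91 to 49.4) in resting Th1 and 13.9 (4.28 to 71.7) in resting Th2. Across all tested bins the median ratio of resting Th2 to naive was 0.11 below 1 on the log2 scale, and relative to it 85 of the bins were called higher (background 7.57%).

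Few of the bins were called between resting Th1 and resting Th2, and those named here were picked after their values were seen. Resting Th2 was called higher in 7 (background 3.83%) and resting Th1 in 2 (1.93%), with a median ratio of Th1 to Th2 of 0.921. The bin furthest towards Th2 was on chromosome 4 from 8830001 to 8840000, where resting Th2 had 79 reads and resting Th1 36, or 2.96-fold more RPM (1.97 to 4.52). The 2 bins in favour of Th1 were on chromosome 11 from 97010001, where 50 reads stood against 13, 2.85-fold (1.53 to 5.72), and on chromosome 14 from 62300001, where 71 stood against 24, 2.19-fold (1.36 to 3.64). The 2 bins towards Th1 lie below their background. The 7 towards Th2 do so too, but there were 15 bins, above the background, when the list was made without stimulated Th1 or ranked by ratio.

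Comparisons of stimulated with resting cells of the same subset share the stimulated libraries with the rule, so the counts are a description. In Th1 141 of the bins were called higher after stimulation (background 6.1%) and none lower (6.6%), with a median ratio of 1.93 (range 0.877 to 11.1). In Th2 79 were called higher (4.43%) and none lower (3.69%), with a median of 1.47 (range 0.659 to 8.32). The median of all tested bins in Th1 was 0.18 below 1 on the log2 scale, and relative to it 178 were called higher (background 8.42%). Both subsets were called higher in 77 bins (background 2.4%), Th1 without Th2 in 64 (5.33%), Th2 without Th1 in 2 (2.66%) and neither in 157 (89.6%). All 3 stimulated libraries stood above all 3 unstimulated ones in 198 of the bins, against 8.17% of autosomal bins with at least 10 BRG1 reads. Naive was the lowest of the 6 in 232 bins, and stimulated Th1 the highest in 241. These counts have no share over all bins beside them, and the rule favours bins high in the stimulated libraries.

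The bin with the largest ratio was on chromosome 12, 114030001 to 114040000, with 11 reads in naive, 17 and 9 in resting Th1 and Th2 and 31 in input. Stimulated Th1 had 409 reads there, stimulated Th2 238 and stimulated Th17 377. The ratio was 11.1 (6.85 to 19.3) in Th1 and 8.32 (4.31 to 18.4) in Th2. In RPM naive stood at 5.31 and resting Th2 at 6.72, below the 8.78 of the input. The window from 114036001 was the fullest in all 3 stimulated libraries and in the input, with 76, 51, 53 and 7 reads.

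The other bins with large ratios also had unstimulated levels near or below the input. On chromosome 7, 87550001 to 87560000, naive had 9.17 RPM, resting Th1 and Th2 had 7.74 and 7.46, and input had 8.78, against 67.1, 53.0 and 52.0 in stimulated Th1, Th2 and Th17. On chromosome 12, 87040001 to 87050000, the unstimulated libraries had 12.1 (naive), 9.40 (resting Th1) and 11.2 RPM (resting Th2) and input 10.5, against 81.7, 68.5 and 62.6 in stimulated Th1, Th2 and Th17. The bins on chromosome 10 from 80220001 and on chromosome 5 from 32490001 had pooled stimulated to resting ratios of 6.42 (4.58 to 9.25) and 6.77 (4.53 to 10.6). In these 5 bins the stimulated and unstimulated libraries did not overlap, which follows largely from naming them by their ratios.

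A few of the bins were as high or higher before stimulation. On chromosome 6, 41500001 to 41510000, resting Th2 had 108 RPM, stimulated Th2 73.4, resting Th1 64.7, stimulated Th1 58.7, stimulated Th17 36.2, naive 35.7 and input 13.0. The pooled stimulated to resting ratio was 0.798 (0.687 to 0.928). On chromosome 1, 166000001 to 166010000, it was 0.816 (0.695 to 0.960), with 79.1 RPM in resting Th2 and 58.9 in stimulated Th2. These 2 ratios stayed below 1 with all reads kept, at 0.760 and 0.786. For 3 further bins with low ratios, on chromosome 11 from 3090001, chromosome 2 from 49300001 and chromosome 2 from 32300001, all reads kept gave 1.24, 1.59 and 1.60.

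**Figure D5:**
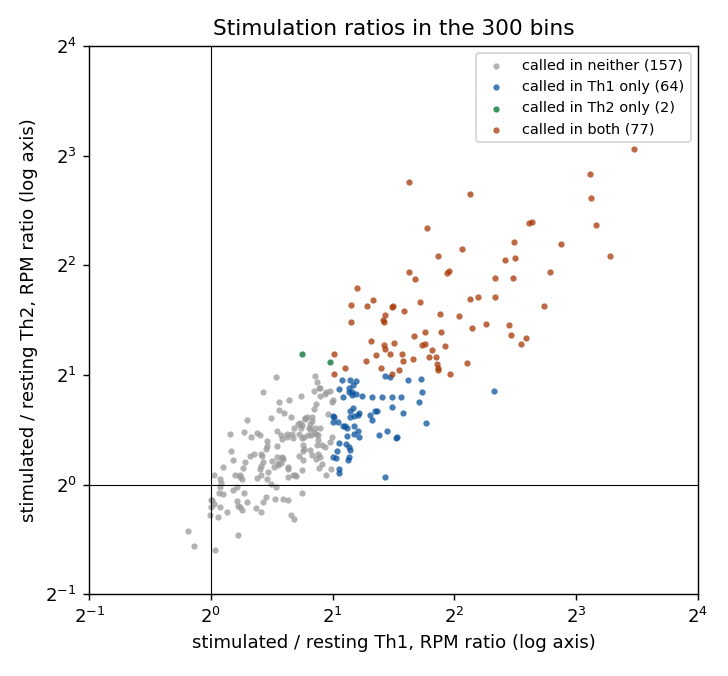
RPM ratio of stimulated to resting Th2 (vertical log axis) against that of Th1 (horizontal log axis) for the 300 bins, coloured by whether the bin was called at least 2-fold higher. Colours mark 77 bins called in both subsets, 64 in Th1 and 2 in Th2, and the highest point has ratios of 11.1 and 8.32.

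Among the stimulated subsets Th1 was the highest in most of the bins and Th17 the lowest. Stimulated Th1 lay above Th2 in 267, a count with no share over all autosomal bins beside it. No bin was called different between stimulated Th1 and Th2 in either direction (background 1.9% and 3.33%), with a median ratio of 1.19. Stimulated Th17 was called lower than Th1 in 24 bins (4.51%) and higher in none (6.71%), with a median ratio of 0.723. It was called lower than Th2 in 12 (6.42%) and higher in none (7.21%), with a median of 0.858. Neither count can be placed above or below its background, because that turned with the libraries used for the list. Th17 was below Th1 in 13 bins, under the background, when the list was made without Th1, and below Th2 in 20, above it, when the list was made without Th17. Th17 lay below both in 214 bins and above both in 23, again without a share over all bins. Over all tested bins the median ratio was 0.989 for stimulated Th1 to Th2. It was 1.03 for Th17 to Th1 and 1.00 for Th17 to Th2. Both comparisons of Th17 share the Th17 library. At equal depth stimulated Th1 had 13773 called windows on all autosomes, stimulated Th2 12370 and stimulated Th17 6620. The order of the stimulated libraries in the bins thus goes with a difference across whole libraries, and its cause was not tested. The mean of the 3 libraries was used by the rule, which leaves little room for a bin high in a single one.

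In the 3 bins that leaned most to Th1 the ratio of stimulated Th1 to the other 2 pooled was 2.23 (1.92 to 2.59) on chromosome 11 from 97000001, 2.15 (1.88 to 2.46) on chromosome 8 from 124800001 and 2.14 (1.85 to 2.48) on chromosome 2 from 156660001. The first had 77.6, 51.4 and 25.9 RPM in stimulated Th1, Th2 and Th17. In favour of Th17 were chromosome 11 from 52150001, at 1.39 (1.22 to 1.59), chromosome 2 from 131330001, at 1.37 (1.20 to 1.56), and chromosome 12 from 109160001, at 1.32 (1.16 to 1.51). The first of these had 68.0 RPM in stimulated Th17, 54.1 in stimulated Th1 and 44.1 in stimulated Th2. In favour of Th2 over the other 2 pooled were chromosome 6 from 41500001, at 1.68 (1.46 to 1.94), chromosome 2 from 49300001, at 1.64 (1.44 to 1.86), and chromosome 3 from 37210001, at 1.65 (1.43 to 1.89). Against stimulated Th1 alone the Th2 ratios were 1.47 (1.20 to 1.80), 1.01 (0.872 to 1.17) and 1.05 (0.895 to 1.24) in the same order. The bins on chromosomes 2 and 3 were thus low in Th17, with no difference between Th2 and Th1 beyond counting error. In each of these 3 the highest of the 6 libraries was resting Th2, at 108, 139 and 94.0 RPM.

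A stimulated library that took no part in choosing the bins was also above the input in them. When the list was made from stimulated Th2 and Th17 alone, 256 of its 300 bins were on the list used here, and stimulated Th1 was called higher than input in 300 (background 7.36%), with a median ratio of 5.90. For stimulated Th2 left out, the numbers were 261, 300 (7.36%) and 4.98. For stimulated Th17 left out, they were 251, 290 (7.99%) and 3.88. The input was shared by all of these. Each single library's own list of 300 bins shared bins with this list: 243 for stimulated Th1, 223 for Th2 and 178 for Th17, 100 for resting Th1, 78 for resting Th2 and 83 for naive. The list used here holds 0.121% of all autosomal bins. The overlaps of the stimulated libraries follow largely from the rule, which uses them. All of these lists subtract the same input, so the overlaps are a description. On the list used here, which the rule fixes, stimulated Th1, Th2 and Th17 were called above input in 300, 300 and 297 bins and below it in none (background lower 17.6%, 17% and 28.6%).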

How the data were processed

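BRG1 ChIP-seq reads of 6 libraries and 1 input library were analysed, 1 library per group. The authors deposited 1 line per aligned read of 34 bases, with no counts or scores. Per the submitters' processing notes the reads are on mm9. No aligner or filter is named in the sources used here. The gene table at hand is of another build, GRCm38, so no genes or sequences are attached to regions.

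From these files 1 read per chromosome, 5′ end and strand was kept and its 5′ end moved 75 bp inward, without chromosome Y. Reads were counted in 10 kb bins from base 0. Each 200 bp window was tested, at equal depth, against a Poisson rate set by the genome mean or by scaled input over 1, 5 or about 10 kb, whichever was highest, with a tail below 1e-05. The bins and lists were chosen with earlier results of these data known. Bins were named by a set rule: the 12 largest excesses, the 5 longest stretches, the extremes of stimulated to resting ratios, of each stimulated subset and of naive over input, and the edge of the list. The planned naming of genes was not possible. Steps were tested on simulated data, with Python 3.11.15, NumPy 2.4.6 and SciPy 1.17.1. Alternatives covered repeated reads, bin position and size, depth, fold, scaling, ranking, read shift, lists chosen on 50% of the reads and the stimulated libraries used.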

Additional observations from a re-analysis of the deposited data

Results flagged for a closer look

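Chromosome X was not part of the list, which was drawn from autosomes. On it 2 bins had at least the stimulated excess of the lowest listed bin. They were neighbours, from 166420001 to 166440000, with 394 and 184 RPM in stimulated Th1 and 128 and 76.2 RPM in the input.

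In 30 bins the ratio of stimulated to resting cells was above 1 in Th1 and below 1 in Th2, and in 0 bins the reverse held. These counts have no share over all autosomal bins beside them. The median ratio in the 300 bins was 1.93 in Th1 and 1.47 in Th2, against 0.885 and 0.996 over all tested bins. The difference between the subsets was not tested, since each group had 1 library. With all reads kept, 12 of the 30 still lay on opposite sides. In 1 bin both intervals left out 1. On chromosome 3, 37210001 to 37220000, the ratio was 1.60 (1.25 to 2.08) in Th1 and 0.804 (0.652 to 0.996) in Th2, and 1.59 and 0.812 with all reads.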

How the results depend on the processing

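No paired analysis was possible because each group has 1 library. Of 173 values recomputed under alternatives for 17 results, 135 stayed within 1.5 times the value reported. Of the 300 bins, 182 overlapped a chosen bin when tiling began at base 5000, 126 were also chosen when ranked by ratio, and 134 lay in the 150 bins chosen at 20 kb. Under a 3-fold rule naive was above input in 66 bins, resting Th1 above naive in 11, resting Th2 above naive in 27 and above resting Th1 in 0. Stimulated Th1 was then above resting Th1 in 58, stimulated Th2 above resting Th2 in 34, and Th17 below Th1 in 2 and below Th2 in 0. The 3-fold counts, and those below with all reads kept or at equal depth, have no share over all autosomal bins beside them. With all reads kept and the list made anew, resting Th2 was above resting Th1 in 16 bins, Th17 below Th1 in 37 and below Th2 in 25, and stimulated Th1 above Th2 in 3. It was also 3 on the unchanged list, which was tried after seeing the data, as were leaving out bins of high input and joining over 50 kb. Stimulated Th1 was above Th2 in 2 bins at equal depth and in 1 when ranked by ratio, where resting Th2 was above resting Th1 in 15. When the list was made without 1 stimulated library, resting Th2 was above resting Th1 in 5 to 15 bins, Th17 below Th1 in 13 (without Th1) to 38 (without Th17), Th17 below Th2 in 4 (without Th2) to 20 (without Th17), and stimulated Th1 above Th2 in 0 to 1. The counts of resting Th2 over resting Th1, Th17 below Th1 and Th17 below Th2 thus changed sides with the libraries used for the list. They are set here against the share of all autosomal bins called at 2-fold with distinct reads. With all distinct reads 247, 243 and 260 bins had at least 3 regions in stimulated Th1, Th2 and Th17. At a tail of 1e-07 the numbers were 62, 22 and 3, and 0 in naive. With all reads kept they were 140 (stimulated Th2), 119 (stimulated Th17) and 10 (naive), and without moving the 5′ ends 2 in naive. The cause was not tested. The region counts rest on 1340208 distinct reads per library, and a region not called was not detectable at that depth.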
